A study of Mus musculus with 10 samples.

Results

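RNA of 36 genes of inflammatory cytokines and NF-kB targets was followed through 10 mouse mammary carcinoma lines. The genes were chosen by name, for their place in cytokine and NF-kB biology, with earlier results of these data known. All 36 had an entry among the 55418 named genes of the deposited table. Of the 36, 34 passed the filter on low counts and were tested among 19936 genes, and Cxcl12 and Ccl7 were not tested. The lines were 3 from lung metastases (metastasis 5, 3 and 7), 3 from circulating tumour cells (CTC 1, 3 and 6), 3 from fat pad xenografts (primary 5, 7 and 8), and the parental line, with 1 library each. Values of 3 lines are given below in that order of lines.

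The parental line was 4T1-hHER2, a BALB/cfC3H mammary carcinoma line infected with a lentivirus for stable human HER2 and luciferase. The 9 derived lines descend from cells with this insert and were labelled with the strain NOD-SCID-GAMMA, an immunodeficient mouse without mature T, B and NK cells that keeps macrophages and neutrophils. Per the labels, each of the 9 goes back to circulating tumour cells of such mice that had been inoculated orthotopically with the parental cells, so no derived group is a direct sample of the first tumours. Whether a line is 1 clone or a pool, the animals' age, and what the number in a title stands for are not given in the sources used here. Each value is therefore from RNA of a grown-out line, and p-values measure the spread between lines only. The comparisons ask how lines from lung metastases, CTCs and primary tumours differ, and how all of them differ from the line they came from.

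NF-kB is a family of dimeric transcription factors held in the cytoplasm by inhibitor proteins such as the product of Nfkbia. Signals from TNF, interleukin 1 and pattern receptors lead to degradation of the inhibitor, and the freed dimers turn on cytokines, chemokines, adhesion molecules and their own inhibitors, Nfkbia and Tnfaip3 among them. A slower branch processes the Nfkb2 precursor and acts with the product of Relb. In mammary tumours such cytokines are known for drawing in and maturing myeloid cells, as the 4T1 model does with its marked neutrophil expansion.

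Libraries held 79869760 to 97722716 estimated counts, and levels are given as CPM, counts per 1000000 counts of named genes, scaled with TMM factors. At this depth 3 counts, taken as the floor, were 0.0390 to 0.0465 CPM. All 8 markers of mammary epithelium reached 1 CPM, with a summed level of 1297 to 2944 CPM in metastasis, 1575 to 2699 CPM in CTC and 2159 to 3955 CPM in primary lines and 1786 CPM in the parental line. Krt18 was at 303 to 1462 CPM over all libraries. Epcam was at 21.9 to 47.0 CPM in metastasis, 15.7 to 39.7 CPM in CTC and 56.3 to 204 CPM in primary lines, highest in primary 7 and primary 8, which were also highest for Krt19 (121 and 262 CPM). Of 6 neutrophil markers none reached 1 CPM, and Ly6g, S100a9, Csf3r and Elane were at 0 in each library. Of 8 leukocyte and macrophage markers 3 reached 1 CPM (Mertk, Cd14 and Cd68), with a summed level of 9.35 to 30.3 CPM in metastasis, 12.8 to 29.1 CPM in CTC and 12.4 to 18.4 CPM in primary lines and 5.67 CPM in the parental line, while Ptprc of blood cells reached 0.232 CPM and Adgre1 of macrophages was at 0 in each library. The fibroblast list had 4 of 7 genes at 1 CPM or more somewhere, with a summed level of 15.0 to 303 CPM in metastasis, 10.9 to 142 CPM in CTC and 4.88 to 77.2 CPM in primary lines and 5.10 CPM in the parental line. Most of that sum was Pdgfra, at 269, 126 and 11.3 CPM in metastasis, 72.3, 141 and 10.1 CPM in CTC and 58.1, 4.84 and 4.05 CPM in primary lines, while Pdgfrb reached 18.7 CPM, Dcn 12.4 CPM, Col1a1 2.32 CPM and the other 3 markers less than 1 CPM. The mitochondrial share of counts was 3.14%, 2.34% and 2.51% in metastasis, 2.22%, 2.01% and 1.07% in CTC and 1.63%, 1.67% and 1.14% in primary lines, and 1.72% in the parental line.

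Most of the 36 genes had transcripts in these lines. Of them, 27 reached 1 CPM in some library, 23 reached 5 CPM and 17 were above 1 CPM in all 10 libraries, while 9 stayed below 1 CPM in each library. Levels of different genes are compared only per kilobase of exon. On that scale Tnfaip2 had the highest median, 89.2 CPM per kb, ahead of Nfkbia (62.9 CPM per kb), Csf1 (59.0 CPM per kb), Nfkb2 (46.0 CPM per kb), Ptgs2 (43.6 CPM per kb) and Tslp (31.1 CPM per kb). The classical inflammatory cytokines Il1b, Il6 and Tnf had medians of 0.0266, 0.0333 and 0.0852 CPM per kb.

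**Figure D1:**
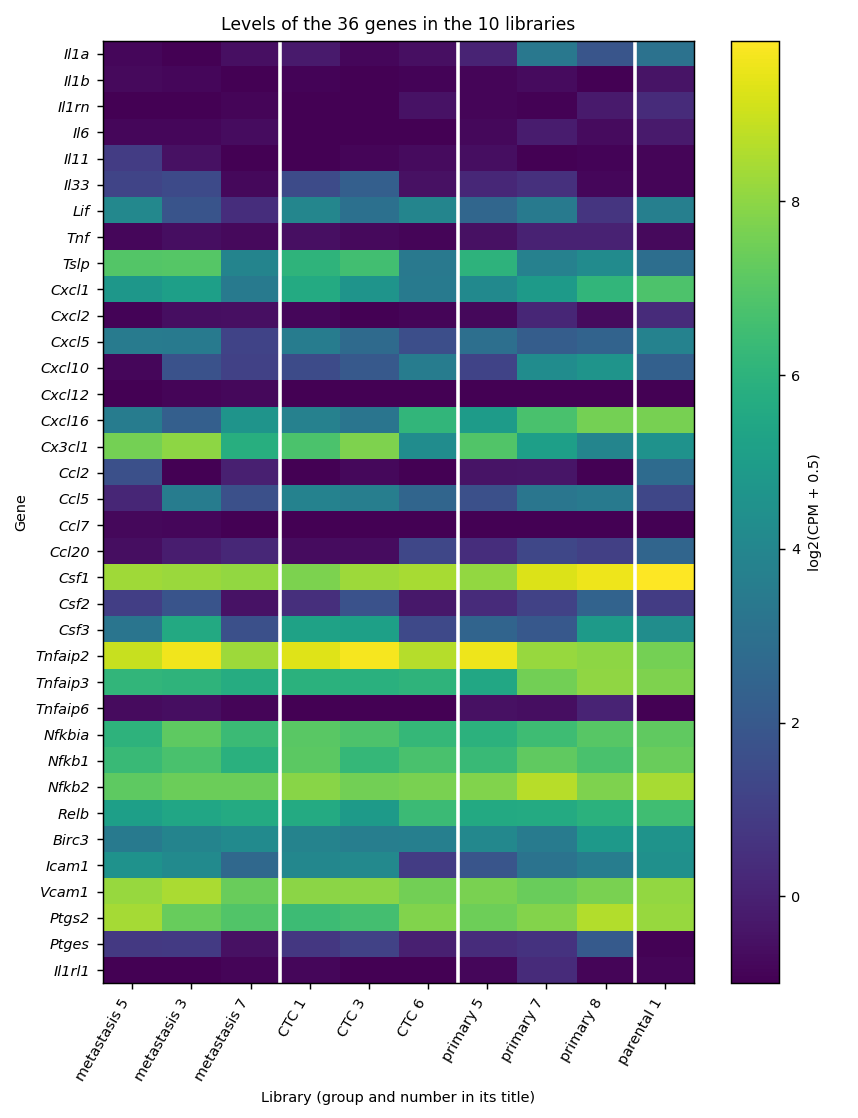
Each row is one of the 36 genes and each column one of the 10 libraries, from metastasis lines at the left to the parental line at the right, with white lines between groups. Colour is log2(CPM + 0.5); Csf1, Tnfaip2, Vcam1, Ptgs2 and Nfkb2 are bright in all 10 libraries, and the 9 genes below 1 CPM are dark throughout.

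NF-kB dimers bind short DNA motifs, so the gene starts were searched for the 10-letter pattern GGGNNNTTCC on both strands (GGAANNNCCC on the strand as printed). RefSeq promoters (GRCm38.p6, 250 bases before to 50 after a start) were at hand for 26 of the 36 genes, with 34 windows. The pattern occurred in 10 of these 26 genes (38.5%), against 1704 of 27025 genes (6.31%), and in 44.1% of their windows against 5.56% of all windows. The median GC content was 56.7% in the windows of these genes and 52.7% in all windows. The 10 genes were Ccl20, Il1rn, Csf1, Il6, Cxcl1, Cxcl2, Cxcl10, Tnfaip3, Nfkbia and Nfkb2. The genes were chosen as NF-kB targets, so a high share says nothing about these lines, and a match is not a measured site. Windows of the genes with the closest shared pattern (Csf1 and Tnfaip3), of Cxcl1 and of the gene with the widest range (Cxcl10) are shown with matches in capitals, beside Cx3cl1, whose window has no match and whose levels ran against Cxcl16. They are Csf1 at chr3:107760420-107760719 (minus strand), Tnfaip3 at chr10:19015361-19015660 (minus strand), Cxcl1 at chr5:90890995-90891294 (plus strand), Cxcl10 at chr5:92348840-92349139 (minus strand) and Cx3cl1 at chr8:94771930-94772229 (plus strand), each written 5′ to 3′ on the gene's strand. In Cxcl1 the run of 11 capitals holds a match on each strand that overlap each other. Windows of Il1a and Ptgs2, not shown, have no match either, though their levels went with Csf1 (Pearson's r = 0.87 and 0.73 over the 10 libraries).
Csf1: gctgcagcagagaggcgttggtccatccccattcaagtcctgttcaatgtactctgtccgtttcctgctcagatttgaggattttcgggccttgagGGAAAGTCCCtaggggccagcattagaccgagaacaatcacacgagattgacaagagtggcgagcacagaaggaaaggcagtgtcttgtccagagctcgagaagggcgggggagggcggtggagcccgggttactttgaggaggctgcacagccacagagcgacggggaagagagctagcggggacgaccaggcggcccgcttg
Tnfaip3: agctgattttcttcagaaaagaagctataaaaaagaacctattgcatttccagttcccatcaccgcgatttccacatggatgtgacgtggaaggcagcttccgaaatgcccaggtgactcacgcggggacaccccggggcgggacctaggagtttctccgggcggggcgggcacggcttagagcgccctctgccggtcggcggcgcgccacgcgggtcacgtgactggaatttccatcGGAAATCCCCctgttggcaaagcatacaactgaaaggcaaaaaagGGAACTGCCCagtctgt
Cxcl1: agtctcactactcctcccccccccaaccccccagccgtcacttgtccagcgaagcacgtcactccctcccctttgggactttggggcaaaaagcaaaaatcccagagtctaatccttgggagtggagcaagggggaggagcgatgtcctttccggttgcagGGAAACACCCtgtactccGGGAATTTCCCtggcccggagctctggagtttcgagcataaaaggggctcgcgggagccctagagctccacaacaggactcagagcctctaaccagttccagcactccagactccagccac
Cxcl10: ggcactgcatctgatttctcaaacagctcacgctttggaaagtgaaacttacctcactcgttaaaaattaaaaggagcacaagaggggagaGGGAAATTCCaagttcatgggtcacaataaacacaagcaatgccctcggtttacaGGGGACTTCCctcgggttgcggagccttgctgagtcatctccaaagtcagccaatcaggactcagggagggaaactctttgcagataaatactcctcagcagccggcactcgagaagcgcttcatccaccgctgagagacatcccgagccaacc
Cx3cl1: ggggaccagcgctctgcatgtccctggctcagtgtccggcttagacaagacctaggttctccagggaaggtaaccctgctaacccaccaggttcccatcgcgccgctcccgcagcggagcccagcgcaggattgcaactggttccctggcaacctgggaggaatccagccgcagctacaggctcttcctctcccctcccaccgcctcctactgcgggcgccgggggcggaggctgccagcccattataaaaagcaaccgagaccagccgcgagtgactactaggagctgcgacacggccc

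Among the interleukins and related cytokines, Il1a, Il33, Lif and Tslp were the members with clear levels. Il1a encodes interleukin 1 alpha, an alarm cytokine that activates NF-kB in neighbouring cells. Its level was 0.0651, 0 and 0.177 CPM in metastasis lines, 0.360, 0.0774 and 0.183 CPM in CTC lines, 0.558, 9.69 and 3.11 CPM in primary lines and 8.06 CPM in the parental line. All 3 primary lines were above all 6 metastasis and CTC lines, and the parental line lay inside the range of the primary lines. Tslp encodes an epithelial cytokine that acts on dendritic cells and lymphocytes. It was at 121, 128 and 14.3 CPM in metastasis lines, 65.7, 95.2 and 10.05 CPM in CTC lines, 64.3, 13.0 and 18.4 CPM in primary lines and 7.17 CPM in the parental line. The parental line was the lowest of the 10, and each derived group had lines at 64.3 CPM or more and lines at 18.4 CPM or less, so the derived groups overlapped. Il33, an alarm cytokine of epithelial nuclei, was at 1.83, 2.17 and 0.0954 CPM in metastasis lines, 2.27, 4.35 and 0.198 CPM in CTC lines, 0.669, 0.908 and 0.0687 CPM in primary lines and 0.0567 CPM in the parental line. It was lowest in the parental line and highest in CTC 3, and the derived groups overlapped. Lif, a cytokine of the interleukin 6 family, was at 16.2, 3.00 and 0.832 CPM in metastasis lines, 15.1, 7.48 and 15.0 CPM in CTC lines, 5.51, 10.2 and 1.10 CPM in primary lines and 12.5 CPM in the parental line. Metastasis 7 and primary 8 were the lowest lines and metastasis 5 the highest, with overlap of all groups.

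The other cytokines of this class were at low levels. Il11, also of the interleukin 6 family, was at 1.38 CPM in metastasis 5 and at 0.21 CPM or less in the other 9 libraries. Il6 had 5 to 10 counts in metastasis lines, 0 in each CTC line, 6 to 29 in primary lines and 25 in the parental line. Tnf was at 0.0781, 0.170 and 0.109 CPM in metastasis, 0.173, 0.108 and 0.0610 CPM in CTC and 0.209, 0.526 and 0.536 CPM in primary lines, and at 0.0992 CPM in the parental line. Il1b reached 0.241 CPM and Il1rn, the natural antagonist of the interleukin 1 receptor, 0.751 CPM, both in the parental line. Il1rl1, the receptor of interleukin 33, was at 0.763 CPM in primary 7 and at 0.0697 CPM or less in the other libraries.

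Chemokines showed patterns that ran against each other. Cx3cl1 encodes fractalkine, a membrane-bound chemokine for cells with the receptor Cx3cr1. It was at 192, 258 and 56.1 CPM in metastasis lines, 111, 213 and 18.8 CPM in CTC lines, 118, 34.7 and 15.0 CPM in primary lines and 22.5 CPM in the parental line. Metastasis 3, CTC 3 and metastasis 5 were the highest, primary 8 and CTC 6 were the lowest, and the groups overlapped. Cxcl16, the other membrane-bound chemokine of the family, was at 11.3, 4.32 and 23.8 CPM in metastasis lines, 13.2, 8.89 and 70.4 CPM in CTC lines, 30.6, 106 and 189 CPM in primary lines and 198 CPM in the parental line. All metastasis lines were below all primary lines, and the parental line was the highest of the 10. Ccl20, which draws cells with Ccr6, was at 0.169, 0.406 and 0.641 CPM in metastasis lines, 0.133, 0.139 and 1.998 CPM in CTC lines, 0.836, 2.01 and 1.58 CPM in primary lines and 5.40 CPM in the parental line. As for Cxcl16, the metastasis lines lay below the primary lines and the parental line was the highest. Over the 10 libraries log2(CPM + 0.5) of Cx3cl1 and Cxcl16 correlated at -0.94 (Pearson's r), a description over lines that share a parental line.

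Cxcl1, Cxcl2 and Cxcl5 are ligands of Cxcr2, the receptor that guides neutrophils. Cxcl1 was at 26.0, 34.8 and 10.5 CPM in metastasis lines, 49.0, 24.3 and 10.4 CPM in CTC lines, 17.4, 29.8 and 70.6 CPM in primary lines and 114 CPM in the parental line. The parental line was above each derived line, and metastasis 7 and CTC 6 were the lowest. Cxcl5 was at 11.0, 10.3 and 1.76 CPM in metastasis lines, 11.3, 6.26 and 2.58 CPM in CTC lines, 7.26, 4.06 and 5.02 CPM in primary lines and 13.6 CPM in the parental line. Here too the parental line was the highest and metastasis 7 and CTC 6 the lowest. Cxcl2 reached 0.751 CPM in the parental line and 0.618 CPM in primary 7. Cxcl10, an interferon-induced ligand of Cxcr3, had the widest range of the 36 genes, 5.42 on the log2(CPM + 0.5) scale. It was at 0.0781, 2.79 and 1.65 CPM in metastasis lines, 2.29, 3.55 and 11.2 CPM in CTC lines, 1.76, 18.9 and 24.2 CPM in primary lines and 4.53 CPM in the parental line. Primary 7 and 8 were the highest lines, but primary 5 lay below metastasis 3, so the groups overlapped.

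The CC chemokines gave single-line patterns. Ccl5, which draws T cells and monocytes, was at 0.612, 11.3 and 2.63 CPM in metastasis lines, 13.4, 12.1 and 5.26 CPM in CTC lines, 2.68, 9.10 and 10.2 CPM in primary lines and 1.98 CPM in the parental line. Metastasis 5 and the parental line were low, and the groups overlapped. Ccl2, the main chemokine for monocytes, was at 2.67, 0 and 0.477 CPM in metastasis lines, 0, 0.0929 and 0 CPM in CTC lines, 0.251, 0.276 and 0 CPM in primary lines and 6.37 CPM in the parental line. The parental line and metastasis 5 stood out, and the other 8 libraries were at 0.477 CPM or less. Ccl7 and Cxcl12 were each seen in a pair of metastasis lines alone, with 7 and 6 counts of Ccl7 and 4 and 6 counts of Cxcl12, and at 0 in the other 8 libraries. Counts this low set no direction.

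Colony-stimulating factors differed in how they varied. Csf1, the growth factor of macrophages, was at 316, 300.4 and 269 CPM in metastasis lines, 207, 307 and 345 CPM in CTC lines, 270.2, 626 and 764 CPM in primary lines and 922 CPM in the parental line. The parental line, primary 8 and primary 7 were high, and the other 7 lines lay between 207 and 345 CPM. Csf3 encodes G-CSF, the growth factor of neutrophils, and was at 8.67, 47.3 and 2.63 CPM in metastasis lines, 38.1, 35.8 and 2.104 CPM in CTC lines, 5.21, 3.45 and 29.4 CPM in primary lines and 19.3 CPM in the parental line. Metastasis 3, CTC 1 and CTC 3 were the highest, CTC 6 and metastasis 7 were the lowest, and each group spanned a wide range. Csf2, which encodes GM-CSF, was between 0.218 CPM (metastasis 7) and 4.93 CPM (primary 8).

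Among the NF-kB subunits and their regulators, the range over the 10 libraries was 1.52 to 1.58 on the log2(CPM + 0.5) scale for Nfkb1, Nfkb2 and Relb and 2.55 for Tnfaip3. Nfkb2, the precursor of the p52 subunit, was at 142, 169.7 and 169 CPM in metastasis lines, 244, 183 and 204 CPM in CTC lines, 223, 414 and 217 CPM in primary lines and 343 CPM in the parental line. All metastasis lines were below all CTC and all primary lines. Nfkb1, the precursor of p50, was at 82.1, 105 and 57.97 CPM in metastasis lines, 139, 74.1 and 107 CPM in CTC lines, 80.5, 147 and 105 CPM in primary lines and 167 CPM in the parental line. Relb was at 34.7, 42.5 and 48.9 CPM in metastasis lines, 49.5, 29.9 and 83.7 CPM in CTC lines, 48.1, 48.5 and 60.1 CPM in primary lines and 90.4 CPM in the parental line. For both the parental line was the highest of the 10 and the derived groups overlapped. Nfkbia, which encodes the inhibitor IkB alpha, was at 64.3, 143 and 84.9 CPM in metastasis lines, 136, 113 and 73.5 CPM in CTC lines, 61.9, 89.4 and 132 CPM in primary lines and 145 CPM in the parental line. Its range was 1.22 on the same scale, and the derived groups overlapped. Tnfaip3, which encodes the deubiquitinase A20 that ends NF-kB signals, was at 69.6, 66.1 and 52.5 CPM in metastasis lines, 59.8, 59.2 and 65.7 CPM in CTC lines, 44.4, 187 and 263 CPM in primary lines and 215 CPM in the parental line. Primary 8, the parental line and primary 7 were high, and the other 7 lines lay between 44.4 and 69.6 CPM. Birc3, a ubiquitin ligase of the TNF receptor complex, was at 10.7, 14.4 and 17.8 CPM in metastasis lines, 13.8, 12.1 and 12.4 CPM in CTC lines, 16.2, 10.8 and 28.2 CPM in primary lines and 23.6 CPM in the parental line. Primary 8 and the parental line were the highest. Tnfaip2, a TNF-induced gene linked to membrane protrusions, was at 492, 787 and 307 CPM in metastasis lines, 644, 830.3 and 397 CPM in CTC lines, 759, 293 and 257 CPM in primary lines and 193 CPM in the parental line. The parental line was the lowest of the 10. Tnfaip6, which encodes a hyaluronan-binding protein, had 4 to 12 counts in metastasis lines, 0 in each CTC line, 12 to 40 in primary lines and 0 in the parental line.

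Adhesion and prostaglandin genes completed the set. Vcam1, an adhesion molecule for leukocyte integrins, was at 289, 352 and 163 CPM in metastasis lines, 248, 247 and 188 CPM in CTC lines, 203, 167 and 204 CPM in primary lines and 274 CPM in the parental line. Icam1, another such molecule, was at 22.6, 17.9 and 5.82 CPM in metastasis lines, 15.9, 16.7 and 1.40 CPM in CTC lines, 3.14, 8.35 and 11.6 CPM in primary lines and 21.3 CPM in the parental line. Icam1 was lowest in CTC 6 and primary 5, and the groups overlapped for both genes. Ptgs2 encodes the inducible cyclooxygenase COX-2 and was at 329.9, 161 and 119 CPM in metastasis lines, 86.4, 96.0 and 223 CPM in CTC lines, 176, 231 and 386 CPM in primary lines and 285 CPM in the parental line. Primary 8 and metastasis 5 were the highest and CTC 1 and CTC 3 the lowest. Ptges, which makes prostaglandin E2 from the product of COX-2, was at 0.205 to 3.72 CPM in the derived lines and had 2 counts (0.0283 CPM) in the parental line.

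**Figure D2:**
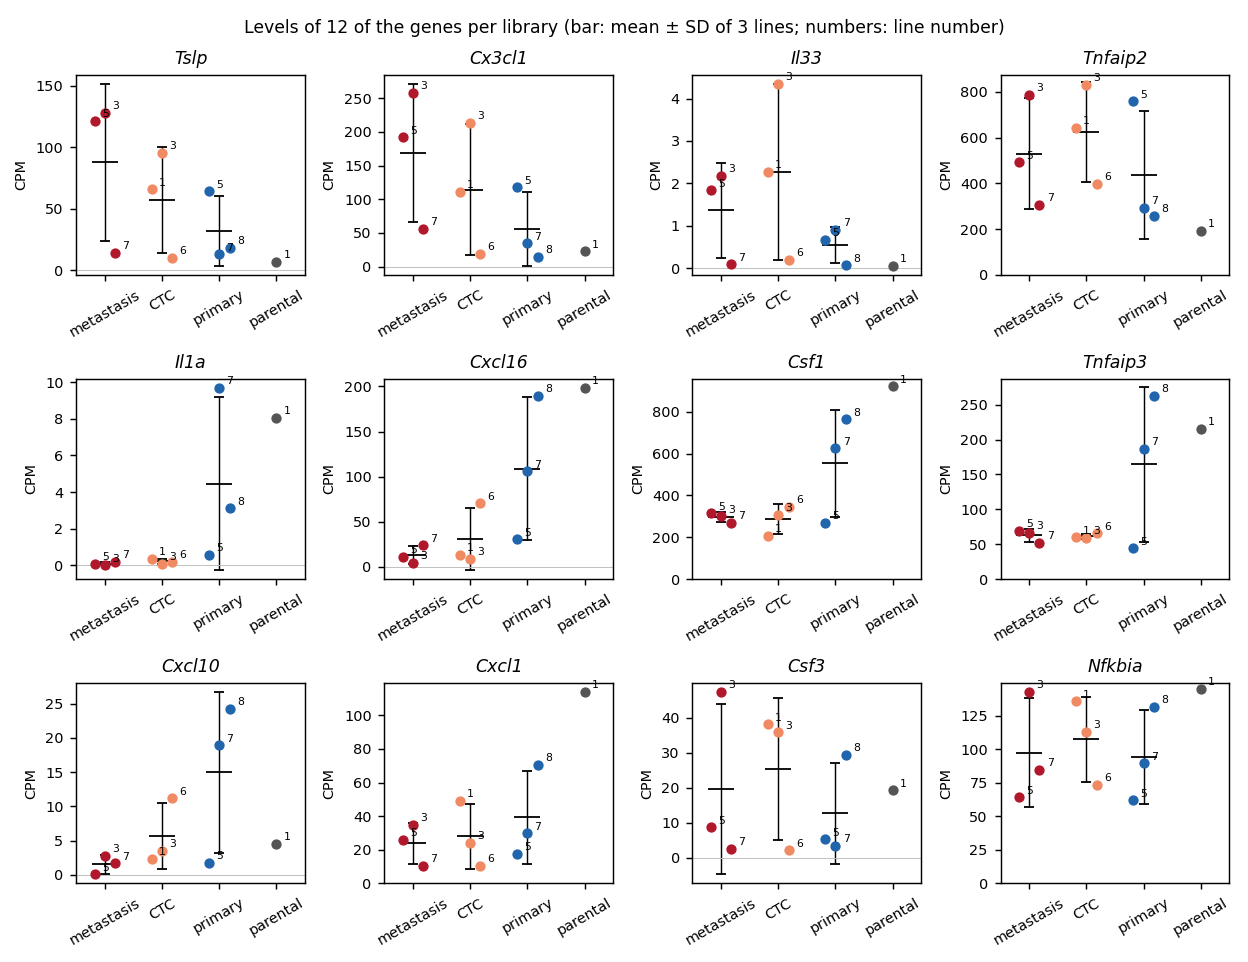
CPM of 12 of the genes, 1 panel a gene, with 1 point a library labelled by its line number, groups from metastasis at the left to parental at the right, and bars for the mean ± SD of 3 lines. Il1a, Cxcl16, Csf1 and Tnfaip3 are high in primary 7 and 8 and in the parental line, whereas Tslp, Cx3cl1, Il33 and Tnfaip2 are lowest or near lowest in the parental line and split the lines of each derived group.

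Between metastasis and primary lines, the genes with the smallest unadjusted p had lower levels in metastasis lines, without any gene passing the test. Il1a averaged 0.0808 ± 0.0897 CPM in metastasis and 4.45 ± 4.72 CPM in primary lines (SD, n = 3 each), and Cxcl16 averaged 13.2 ± 9.89 CPM in metastasis and 109 ± 79.4 CPM in primary lines (SD, n = 3 each). Csf1 averaged 295 ± 24.1 CPM in metastasis and 553 ± 255 CPM in primary lines (SD, n = 3 each). Nfkb2 averaged 160.2 ± 15.6 CPM in metastasis and 285 ± 112 CPM in primary lines (SD, n = 3 each). Tnfaip3 averaged 62.7 ± 9.04 CPM in metastasis and 165 ± 111 CPM in primary lines (SD, n = 3 each). For Csf1, primary 5 lay within the range of the metastasis lines, and for Tnfaip3 below it. Cx3cl1 averaged 169 ± 103 CPM in metastasis and 55.8 ± 54.6 CPM in primary lines, and Vcam1 268 ± 96.2 CPM in metastasis and 191 ± 21.2 CPM in primary lines (SD, n = 3 each). The log2 change was -5.76 (SE 1.41) for Il1a, -3.05 (SE 0.99) for Cxcl16, 1.59 (SE 0.96) for Cx3cl1 and 0.49 (SE 0.30) for Vcam1. None of the 34 tested genes passed at 0.05 in edgeR (quasi-likelihood test, Benjamini-Hochberg adjustment over all genes), nor did any other gene (background 0%). The adjusted p was 0.594 for Il1a and Cxcl16 and 0.63 for Cx3cl1 and Vcam1. With limma-voom 0 of the 34 passed, and with DESeq2 1 did, Il1a (adjusted p 0.000147).

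At an unadjusted p under 0.05 there were 7 genes, all lower in metastasis lines (20.6% of the 34, against a background of 8.29% in either direction, 4.92% lower and 3.37% higher): Il1a, Cxcl16, Nfkb2, Tnfaip3, Tnf, Cxcl10 and Csf1. The 7 became 2 without primary 7, 3 without primary 8 and 4 without metastasis 5. No gene of the 34 had all metastasis lines above all primary lines (background 6.38%), and 7 had them all below (20.6%, background 7.27%): Il1a, Tnf, Cxcl16, Ccl20, Tnfaip6, Nfkb2 and Il1rl1. For Il1rl1 (4 counts each in metastasis 7 and primary 8) and Tnfaip6 (12 counts each in metastasis 3 and primary 7) the lines at the border had equal counts, and their order comes from the scaling alone. Il1rl1 had 58 counts in primary 7 and 5 or fewer in any other library, so it passed the filter on low counts through primary 7 alone. The 20.6% includes both genes, and neither adds to a difference between the groups. In all, 12 genes had a change above 0 and 22 below 0, with a median log2 change of -0.52 against 0.01 over all tested genes. The tested genes below 1 CPM in each library (Il1b, Il1rn, Il6, Tnf, Cxcl2, Tnfaip6 and Il1rl1) were all among the 22. Part of the uneven split and of the median thus comes from genes with few counts. The mitochondrial share of counts, higher in each metastasis line than in each primary line, correlated over the 10 libraries with log2(CPM + 0.5) of Cxcl10 (r = -0.86), Cx3cl1 (0.73) and Cxcl16 (-0.70). The summed epithelial markers correlated with Cxcl10 at 0.64, Tnfaip3 at 0.52, Il1a at 0.45, Csf1 at 0.40 and Cxcl16 at 0.17, and over the set the highest values were those of Csf2 (0.77), Ccl5 (0.69) and Ptges (0.67). The markers in this sum did not run together. Krt18 was highest in CTC 1 (1462 CPM) and Krt8 in metastasis 3 (1232 CPM). Krt7, Epcam and Cdh1 were highest in primary 7 and primary 8. Krt19, Cldn3 and Cldn4 were highest in primary 7, primary 8 and the parental line, with Cldn4 at 437, 156 and 492 CPM there. The part of the mitochondrial share and of these markers in the differences was not tested.

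CTC lines also had lower levels of several of the genes than primary lines. Il1a averaged 0.207 ± 0.143 CPM in CTC and 4.45 ± 4.72 CPM in primary lines, Csf1 286 ± 71.4 CPM in CTC and 553 ± 255 CPM in primary lines, and Tnfaip3 61.6 ± 3.58 CPM in CTC and 165 ± 111 CPM in primary lines (SD, n = 3 each). For Csf1 and Tnfaip3, primary 5 lay within or below the range of the CTC lines. Il6 and Tnfaip6 had no counts in CTC lines. Set against 3 counts per library, Il6 was at least 4.45-fold lower and Tnfaip6 at least 6.83-fold lower in CTC than in primary lines, as ratios of mean CPM. The upward changes with the smallest p were those of Il33, with 2.27 ± 2.08 CPM in CTC and 0.549 ± 0.432 CPM in primary lines, and Lif, with 12.5 ± 4.36 CPM in CTC and 5.59 ± 4.53 CPM in primary lines (SD, n = 3 each). Their log2 changes were 2.05 (SE 1.31) and 1.16 (SE 1.03).

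None of the 34 genes passed with edgeR (background 0%), and the adjusted p was 0.994 for Il6, Tnfaip6, Il33 and Lif. With limma-voom 0 passed and with DESeq2 3 did, Il1a, Tnfaip6 and Il6 (adjusted p 0.0177, 0.012 and 0.0283). At an unadjusted p under 0.05 there were 6 genes, all lower in CTC lines (17.6%, background 4.06% in either direction, 2.54% lower and 1.51% higher): Tnfaip6, Il6, Il1a, Tnf, Tnfaip3 and Csf1. The 6 became 3 without CTC 3 or without primary 7. Groups did not overlap for 0 genes higher (background 3.13%) and 5 lower (14.7%, background 4.02%), namely Il1a, Il6, Tnf, Cxcl2 and Tnfaip6. All of these but Il1a were below 1 CPM in each library, so this share rests largely on genes with few counts. The median log2 change of the 34 was -0.62, against -0.01 over all tested genes. Each tested gene below 1 CPM in all libraries, Il1b, Il1rn and Il1rl1 included, had a change below 0 and so pulled this median down. The metastasis and CTC comparisons use the same 3 primary libraries, so a gene high in primary lines is lower in both.

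Between metastasis and CTC lines the median absolute log2 change of the 34 genes was 0.50, against 0.33 for all tested genes, with changes on both sides of 0. Nfkb2 averaged 160.2 ± 15.6 CPM in metastasis and 210.4 ± 30.5 CPM in CTC lines (SD, n = 3 each), with no overlap, and Cxcl10 1.51 ± 1.36 CPM in metastasis and 5.67 ± 4.81 CPM in CTC lines. Their log2 changes were -0.39 (SE 0.29) and -1.91 (SE 1.20). Il6 and Tnfaip6, at 0 counts in CTC lines, were at least 2.12-fold and 2.59-fold higher in metastasis lines by the same floor. None of the 34 genes passed with edgeR (background 0.00502%), with an adjusted p of 1 for each, and 0 passed with limma-voom or DESeq2. At an unadjusted p under 0.05 there were 3, all higher in metastasis lines (8.82%, background 3.29% in either direction, 1.6% higher and 1.69% lower): Tnfaip6, Il6 and Ccl2. Ccl2 rests on metastasis 5, with 205 counts, since metastasis 3 had none. Groups did not overlap for 2 genes higher (Il6 and Tnfaip6, background 4.43%) and 1 lower (Nfkb2, background 3.85%). The changes were above 0 for 17 genes and below 0 for 17.

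Against the parental line, the derived lines as a whole were lower in Il1a, Csf1, Cxcl1, Cxcl2, Cxcl16, Ccl2, Ccl20, Tnfaip3 and Il6 and higher in Ptges, each at an unadjusted p under 0.05. Not every derived line was below the parental line, since primary 7 was above it for Il1a and Il6 and primary 8 for Tnfaip3. Csf1 averaged 378 CPM over the 9 derived lines and was at 922 CPM in the parental line, Cxcl1 averaged 30.3 CPM in the derived lines and was at 114 CPM in the parental line, and Cxcl16 50.9 CPM in the derived lines and 198 CPM in the parental line. Il1a averaged 1.58 CPM in the derived lines and was at 8.06 CPM in the parental line. The log2 change in this comparison is the mean of the fitted changes of the 3 derived groups, so for a gene whose groups differ widely it is not the log2 ratio of the means. It was -4.25 (SE 1.08) for Il1a, which was near 0 in metastasis and CTC lines and not in primary lines, and -3.48 (SE 0.93) for Il6, whose value is set in part by the prior count because CTC lines had none. Tnfaip2 averaged 530 CPM in the derived lines and was at 193 CPM in the parental line, a log2 change of 1.44 (SE 0.74). Ptges averaged 1.29 CPM in the derived lines, 45.6 times the level of the parental line. The 2 parental counts give this ratio a 95% exact Poisson interval of 12.6 to 377, for counting error only.

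None of the 34 genes passed with edgeR (background 0.0201%, with 0.015% lower and 0.00502% higher). Of the 10, Il1a and Il6 had an adjusted p of 0.451 and Ptges one of 0.453, and Tnfaip2, which is not among them, had 0.507. With limma-voom 0 passed and with DESeq2 2 did, Il1a (adjusted p 0.0478) and Ptges (adjusted p 0.0127). The 10 genes at an unadjusted p under 0.05 made up 29.4% of the 34 genes, against a background of 10.3% in either direction, 4.46% lower and 5.87% higher. All derived lines were above the parental line for 4 genes (Il33, Tslp, Tnfaip2 and Ptges, background 14.1%) and below it for 12 (background 15.4%). The median log2 change was -0.67, against 0.10 over all tested genes. The parental line has 1 library, assumed in the test to vary like the others, so what belongs to the line and what to this library cannot be told apart. Medians of the 34 genes stayed the same to 2 decimals in each comparison with genes at 0 in a whole group put at their bound. They could not have moved, since each such gene stayed on its side of the median.

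**Figure D3:**
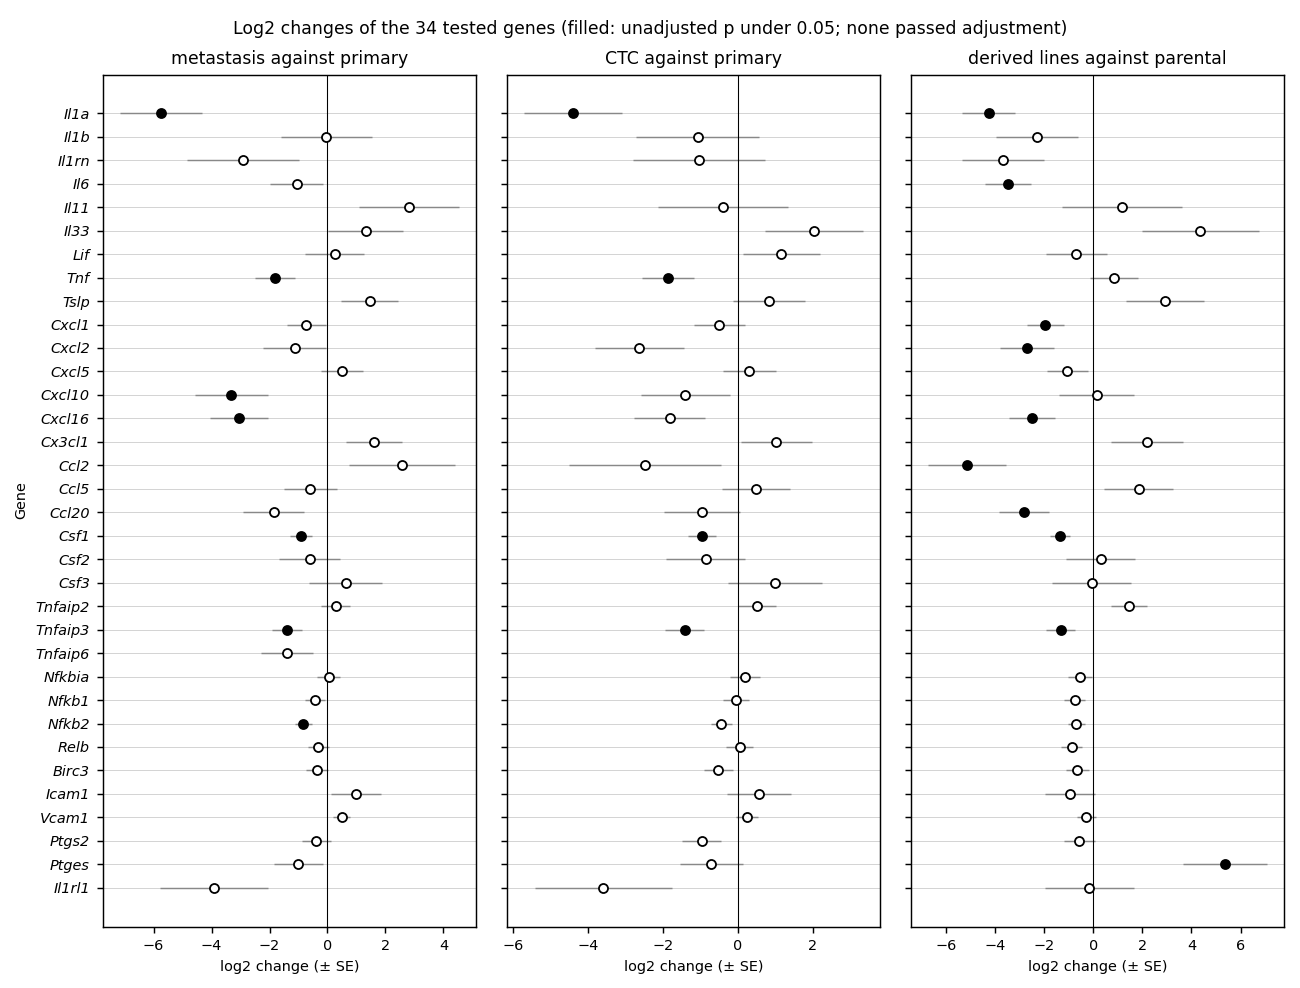
Log2 change ± SE of each tested gene for metastasis against primary, CTC against primary and derived lines against parental, with filled points at an unadjusted p under 0.05 and no point for a gene at 0 in a whole group. In the panels of the derived groups the filled points are all at the left of 0, Il1a farthest, and in the parental panel Ptges is the one filled point at the right.

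Genes of the pathway outside the 36 were taken from lists drawn up by role. Of 40 NF-kB signalling genes (subunits, kinases, adaptors and inhibitors), 35 were above 1 CPM in all 10 libraries. In metastasis against primary lines 18 were higher and 22 lower with a median log2 change of -0.10 and a median absolute log2 change of 0.37, against 1.00 for the 34 genes of the set and 0.50 for all tested genes. The genes with the smallest p were Nfkbie, an inhibitor, with 21.7 ± 9.04 CPM in metastasis and 39.4 ± 5.20 CPM in primary lines, and Rel, a subunit, with 10.8 ± 4.92 CPM in metastasis and 22.6 ± 9.04 CPM in primary lines (SD, n = 3 each). In CTC against primary lines they were Nfkbie, with 24.2 ± 5.10 CPM in CTC and 39.4 ± 5.20 CPM in primary lines, and Irak1, a kinase of interleukin 1 signalling, with 79.7 ± 48.7 CPM in CTC and 34.2 ± 15.3 CPM in primary lines. In derived lines against parental, Rela, the main activating subunit, averaged 143 CPM in the derived lines and was at 254 CPM in the parental line, and Irak4, another kinase of interleukin 1 signalling, averaged 19.8 CPM in the derived lines and was at 8.29 CPM in the parental line. In metastasis against CTC lines they were Irak1, with 29.5 ± 9.66 CPM in metastasis and 79.7 ± 48.7 CPM in CTC lines (SD, n = 3 each), and Irak3, which was at 0.212 CPM or less in each library. None of the 40 passed in any of the 4 comparisons with edgeR. An unadjusted p under 0.05 was found for 5% of the list in metastasis against primary lines (background 8.29%), 0% in CTC against primary lines (background 4.06%), 2.5% in metastasis against CTC lines (background 3.29%) and 15% in derived lines against parental (background 10.3%).

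Of 30 receptors for the ligands of the set, 14 reached 1 CPM in some library and 19 were tested. Receptors that tumour cells share with other tissues were present, Il6st at 54.0 to 261 CPM, Tnfrsf1a at 53.9 to 110 CPM and Il1r1 at 6.49 to 66.6 CPM. Tnfrsf1b was at 33.2 to 204 CPM and Il6ra at 16.9 to 133 CPM. Csf2rb was at 4.41, 10.6 and 0.504 CPM in metastasis, 12.7, 8.44 and 0.244 CPM in CTC and 2.83, 0.263 and 0 CPM in primary lines, and at 0.184 CPM in the parental line. Ackr3, a scavenger receptor of Cxcl12, averaged 10.1 ± 4.29 CPM in CTC and 32.9 ± 9.15 CPM in primary lines (SD, n = 3 each), a log2 change of -1.70 (SE 0.45) with an adjusted p of 0.994 by edgeR. Cxcr3, the receptor of Cxcl10, was at 3.62, 8.37 and 0.586 CPM in metastasis, 10.4, 16.6 and 0.732 CPM in CTC and 3.67, 1.17 and 0.330 CPM in primary lines, and at 0 in the parental line. The other receptors with the smallest p were Ptger1, a receptor of prostaglandin E2, with 4.02 ± 0.807 CPM in metastasis and 2.01 ± 0.446 CPM in primary lines (SD, n = 3 each), Il1r2, the decoy receptor of interleukin 1, which reached 1.43 CPM in primary 7 and was at 0.223 CPM or less in the other libraries, and Cx3cr1, at 0.426 CPM or less in the derived lines and 0.807 CPM in the parental line. None of the 19 passed in any of the 4 comparisons. An unadjusted p under 0.05 was found for 10.5% of them in metastasis against primary lines, 15.8% in CTC against primary lines, 5.26% in metastasis against CTC lines and 10.5% in derived lines against parental, against the same backgrounds.

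Of 53 other cytokines and NF-kB targets, 40 were tested and none passed in any of the 4 comparisons. Il24 averaged 0.145 ± 0.252 CPM in metastasis and 10.8 ± 9.09 CPM in primary lines, and Nos2, the inducible nitric oxide synthase, 0.249 ± 0.171 CPM in metastasis and 1.60 ± 1.21 CPM in primary lines (SD, n = 3 each). Il23a averaged 12.4 ± 5.51 CPM in CTC and 62.5 ± 59.8 CPM in primary lines (SD, n = 3 each), with 130 CPM in primary 8. In metastasis against CTC lines Mmp9, a gelatinase, averaged 51.0 ± 31.9 CPM in metastasis and 20.8 ± 6.26 CPM in CTC lines (SD, n = 3 each), and Ccl9, the other gene with a small p there and in CTC against primary lines, was at 0.265 CPM or less in each library. Gadd45b, a stress-induced gene, was at 4.05 to 258 CPM in the derived lines and 913 CPM in the parental line. Il34, the second ligand of the receptor of Csf1, averaged 2.88 CPM in the derived lines and was at 0.439 CPM in the parental line. The share of this list at an unadjusted p under 0.05 was 12.5% for metastasis against primary lines (background 8.29%), 10% for CTC against primary lines (background 4.06%), 5% for metastasis against CTC lines (background 3.29%) and 20% for derived lines against parental (background 10.3%).

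Variation from line to line is given for the 34 tested genes. Over the 9 derived lines the SD of log2(CPM + 0.5) had a median of 0.740 for the 34 genes and 0.383 for all tested genes, and 7 of the 34 lay below 0.383 (Il1b, Il1rn, Il6, Tnf, Cxcl2, Tnfaip6 and Vcam1). All of these but Vcam1 were below 1 CPM in each library, where the added 0.5 flattens log2 values, so a low SD does not mark them as steady. Among genes that reached 1 CPM the median SD was 0.862 for 27 of the set and 0.492 for all. The share of this variance that lay between the 3 groups had a median of 27.4% for the set and 23.0% for all tested genes. It was highest for Tnf (71.6%), Il1a (67.8%), Tnfaip6 (67.5%), Il6 (58.4%), Nfkb2 (56.5%) and Cxcl16 (55.1%). Of these, Tnf, Tnfaip6 and Il6 had 40 counts or fewer in each library. At the low end were Cxcl5 (0.817%), Csf3 (4.24%), Nfkbia (4.33%), Csf2 (9.08%) and Cxcl1 (10.3%), genes whose lines differ widely inside each group or little anywhere. The differences in SD and share between the set and all genes were not tested.

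Within this line-to-line variation some members moved together. Among 351 pairs of the 27 genes that reached 1 CPM, the median Pearson's r of log2(CPM + 0.5) over the 10 libraries was 0.17, with 16 pairs at 0.8 or above and 8 at -0.8 or below. Over the 9 derived lines the counts were 18 and 8. The closest pair was Csf1 and Tnfaip3 (r = 0.95 over 10 libraries and 0.95 over 9 lines), followed by Tslp and Cx3cl1 (0.93 and 0.92), Il1a and Nfkb2 (0.89 and 0.86) and Cxcl16 and Ccl20 (0.89 and 0.87). Tslp, Cx3cl1, Il33 and Tnfaip2 had an r of 0.81 to 0.93 with each other. Cxcl16 ran against them, with r = -0.94 for Cx3cl1, -0.87 for Tslp, -0.85 for Tnfaip2 and -0.80 for Il33. The lines share a parental line and some share a number in their titles, so the points are not independent, and these values are a description. Pdgfra, of the fibroblast list, was at 58.1 CPM or more in metastasis 5, metastasis 3, CTC 1, CTC 3 and primary 5, the same 5 lines in which Tslp was at 64.3 CPM or more and Cx3cl1 at 111 CPM or more. Mertk, of the leukocyte and macrophage list, was at 4.48 CPM or more in these 5 lines and at 1.21 CPM or less in the others. Dcn was at 12.4, 3.68, 1.59, 0.852 and 2.22 CPM in these 5 lines and at 0.610 CPM or less in the others, Pdgfrb was at 18.7 CPM in metastasis 5 and 15.3 CPM in primary 5, and Col1a1 was highest in primary 7 (2.32 CPM). The part of these markers in the pattern was not tested.

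**Figure D4:**
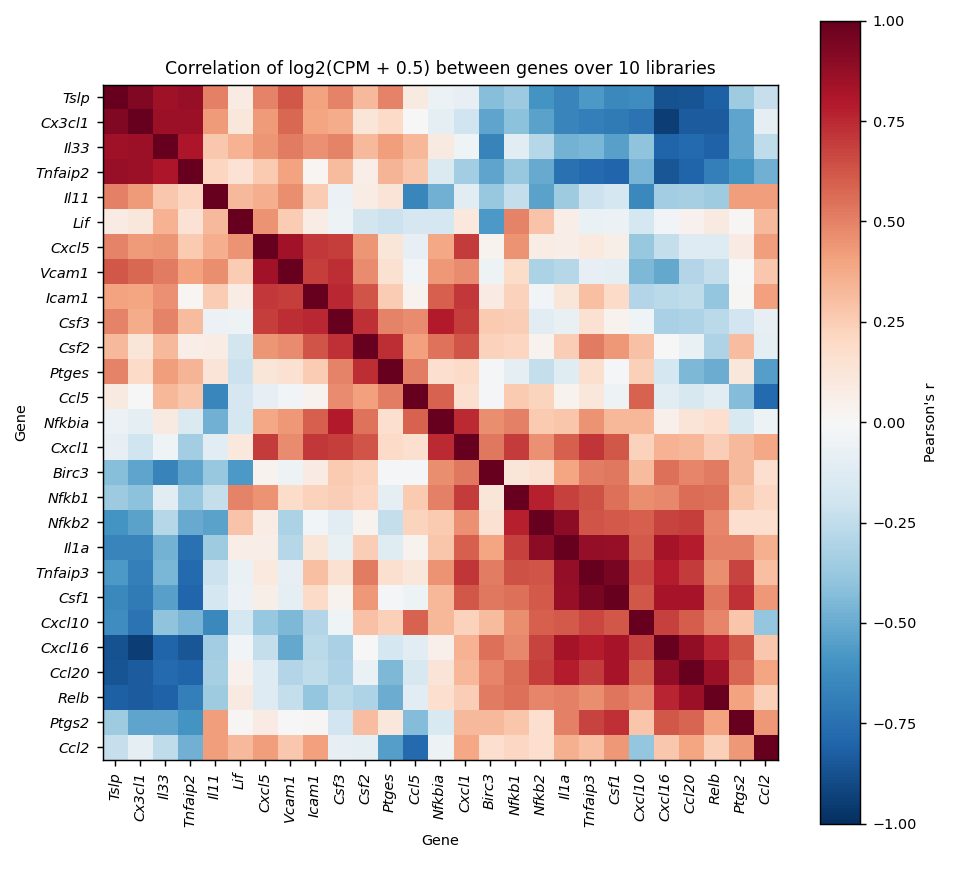
Pearson's r of log2(CPM + 0.5) over the 10 libraries for each pair of the 27 genes that reached 1 CPM, in an order that puts alike genes side by side. Tslp, Cx3cl1, Il33 and Tnfaip2 form the red block at the upper left and Il1a, Tnfaip3, Csf1, Cxcl10, Cxcl16 and Ccl20 a red block at the lower right, and the blue corners between them are pairs such as Cx3cl1 and Cxcl16 at -0.94.

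The tested genes whose pattern over the 10 libraries was most like that of 3 chemokines were looked up in the whole table. For Cxcl10 they were Gm46522 (r = 0.97), Efhd2 (0.97), Gm10364 (0.96), Gm10036 (0.96) and Cad (0.95). Efhd2 lay between 66.6 and 217 CPM and Cad between 136 and 447 CPM. The others were low or varied little, with Gm10364 at 0.467 CPM or less, Gm46522 at 1.74 to 2.82 CPM and Gm10036 at 8.16 to 12.5 CPM. For Cxcl1 they were Pex26 (0.89), 2310001H17Rik (0.89), Stx11 (0.89), Gm26407 (0.89) and Gm6548 (0.89). Of these Pex26 was at 11.5 to 22.1 CPM and Stx11 at 4.35 to 11.6 CPM, while 2310001H17Rik and Gm6548 stayed at 4.19 CPM or less and Gm26407 at 0.340 CPM or less. For Ccl2 they were Myo15b (0.96), Gm28047 (0.96), 4930578M01Rik (0.95), Fer1l6 (0.92) and Gm12946 (0.91), each under 1 CPM in all libraries. These likenesses are given as a description.

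The transcript table divides a gene's counts among its annotated transcripts, as estimated by the authors' assembler, and for Tslp, Lif and Cxcl16 this assignment differed widely between lines. Tslp-201, the protein-coding transcript, took 47.3%, 67.6% and 59.6% in metastasis lines, 28.3%, 56.0% and 16.2% in CTC lines, 38.6%, 23.9% and 25.3% in primary lines and 0% in the parental line of the counts of Tslp. The rest went to Tslp-202, annotated with a retained intron, which took all counts of the parental line. In CPM, Tslp-201 was at 57.5, 86.4 and 8.52 in metastasis, 18.6, 53.3 and 1.63 in CTC and 24.8, 3.12 and 4.65 in primary lines, and at 0 in the parental line. The metastasis lines had shares of 47.3% or more, above all primary lines, and CTC 3 lay among the metastasis values. For Lif, the coding transcript Lif-202 took 82.6% in metastasis 5, 67.7% in CTC 6, 96.9% in primary 7 and 49.8% in the parental line, and 0 in the other 6 libraries, where Lif-201, also coding, took 77.0% or more. For Cxcl16, the transcript annotated for nonsense-mediated decay, Cxcl16-202, took 0%, 0% and 65.8% in metastasis lines, 23.2%, 72.3% and 33.6% in CTC lines, 37.7%, 51.9% and 53.2% in primary lines and 51.0% in the parental line of the counts of Cxcl16. Metastasis 5 and metastasis 3, the lines with 0, had 11.3 and 4.32 CPM of Cxcl16, while CTC 3, with the highest share, had 8.89 CPM. Tnfaip2-211, another such transcript, took 36.7% of the counts of Tnfaip2 in primary 7 and 0 in the other 9 libraries. How the assembler's division of shared reads enters these shares was not tested.

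**Figure D5:**
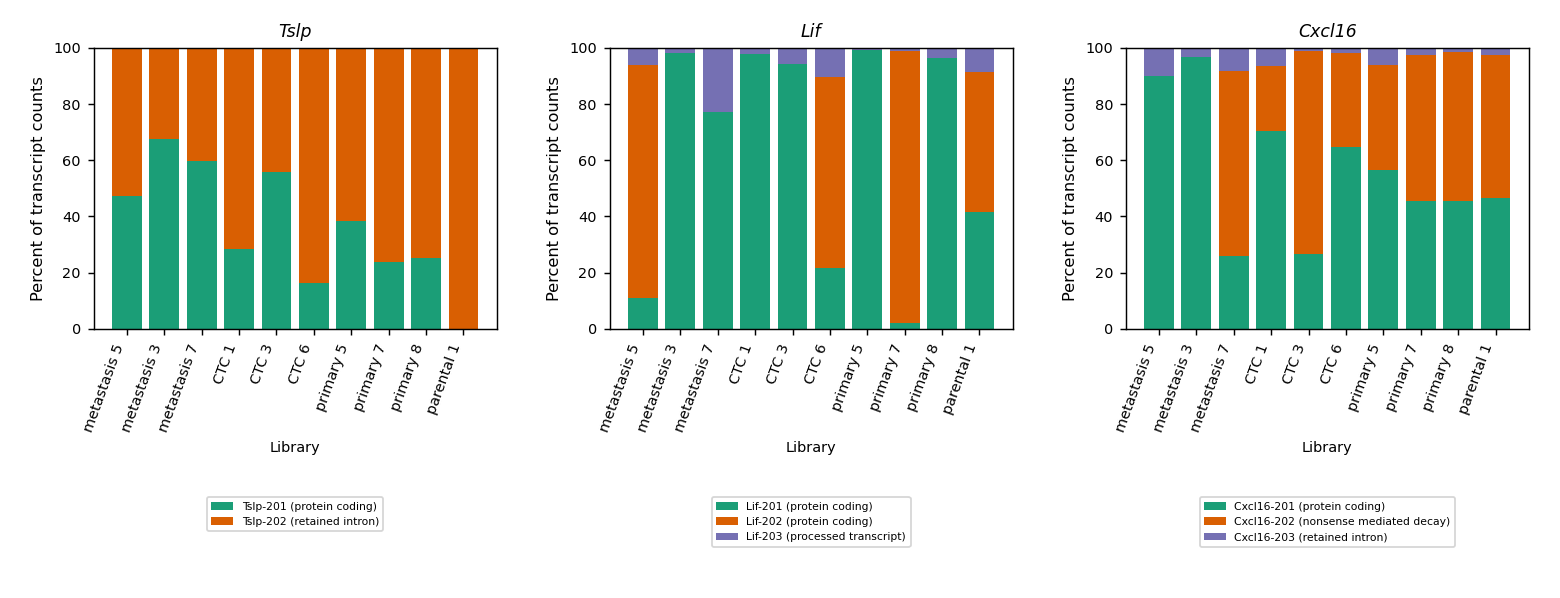
Percent of each gene's transcript counts given to each annotated transcript of Tslp, Lif and Cxcl16 in the 10 libraries, from metastasis lines at the left to the parental line at the right, with transcript types in the legends. Tslp-201 is absent from the parental line and highest in metastasis 3 (67.6%), and Lif switches between Lif-201 and Lif-202 across lines of the same group.

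Counting limits some of these values. On GRCm38 (GENCODE M21), 9 of the 36 genes share exon sequence with a gene on the opposite strand, and no source used here says whether counting used strand. They are Il1a, Il1b, Cxcl10, Cxcl16, Csf2, Tnfaip2, Nfkb2, Icam1 and Vcam1. The opposite gene was at 0.364 CPM or less for Il1a (Gm14023) and 0.0619 CPM or less for Cxcl10 (Art3). Zmynd15, opposite Cxcl16 on chromosome 11, was at 0.589 to 7.73 CPM and Psd, opposite Nfkb2 on chromosome 19, at 0.701 to 14.4 CPM. Named genes took 77.2% to 80.3% of the counts of a library, the rest being assembled transcripts without a name, and reads of a low gene may have been counted there. In bulk RNA of a line, fewer cells that express a gene and less RNA per cell cannot be told apart.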

How the data were processed

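RNA of 10 lines, 1 library each, was sequenced from both ends (Illumina HiSeq) after a TruSeq total RNA preparation, per the labels' protocols. The submitters' processing notes name HISAT2 2.1.0, StringTie 2.0.3, DESeq2 1.26.0 and GRCm38, but no annotation release. The tables deposited by the authors hold estimated counts of genes and transcripts, whole numbers not scaled to library size, since StringTie divides shared reads among transcripts. Of 72544 entries 17126 had no gene name, and the 55418 named ones were used. Of the transcripts 1, with empty cells in all but a single column, was left out. No column of per-sample values was unused (0).

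Counts were tested with edgeR 4.0.16 (R 4.3.3; quasi-likelihood test, TMM factors, filterByExpr, all libraries in 1 fit of 4 groups, Benjamini-Hochberg adjustment at 0.05 over 19936 genes), checked on simulated data. The common biological coefficient of variation was 0.606. Standard errors are from the absolute log2 change and the F statistic. The members and lists were chosen with earlier results of these data known. Named with a log2 change are, per comparison, the 2 members with the smallest p in each direction and named for each list outside the 36, with levels, are the 2 genes with the smallest p. Some receptors are named beyond these, picked for their levels after seeing the data. Alternatives were RLE factors, no filter, all entries, DESeq2 1.42.0, limma-voom (limma 3.58.1), a replicate block, and leaving out each derived line.

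Some titles share a number (5 and 7 in metastasis and primary, 3 in metastasis and CTC). Deviations from group means correlated at 0.114 to 0.508 (median 0.401) over the 3 same-number pairs, all above 0.1, against -0.529 to 0.605 (median -0.0535) over 24 other pairs. The highest values were of pairs with different numbers, CTC 6 with metastasis 7 (0.605) and primary 8 with CTC 6 (0.564). With 3 same-number pairs the correlations do not settle whether a number marks a pair, and no label explains the numbers. They were used as a block in alternative fits only. The random block had a correlation of 0.484.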

Additional observations from a re-analysis of the deposited data

How the results depend on the processing

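Of 16 log2 changes of named members, 250 alternative values kept their direction, with 0 reversed, and 19 moved by over 1.5 times. Of these 7 came with the fixed replicate block, which put Cx3cl1 at 0.70, Vcam1 at 0.25 and Cxcl16 at -1.79 in metastasis against primary, Il33 at 0.32 and Lif at 0.36 in CTC against primary, and Cxcl10 at -0.36 and Nfkb2 at -0.13 in metastasis against CTC. Without primary 5, Cx3cl1 was at 2.77 (metastasis against primary), without CTC 3, Il33 was at 1.17 (CTC against primary), and without CTC 6, Cxcl10 was at -0.95 (metastasis against CTC). Of the 250 values, 5 passed the test that edgeR did not pass, all with DESeq2 (Il1a, Tnfaip6, Il6 and Ptges, with adjusted p given beside each comparison). Levels with no TMM factor moved less than the spread between lines for each of the 69 group values compared.

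With DESeq2 the genes called became 135 in metastasis against primary, 69 in CTC against primary, 27 in metastasis against CTC and 615 in derived lines against parental, against 0, 0, 1 and 4 with edgeR, and the members called became 1, 3, 0 and 2. With all entries of the table the genes called became 0 in metastasis against CTC and 42 in derived lines against parental, with no filter 0 in metastasis against CTC, and with limma-voom 24 in derived lines against parental. The replicate block changed no call of a member. With the number as a random replicate block limma-voom called 1 gene in metastasis against primary and 19 in derived lines against parental, and with it as a fixed replicate block edgeR called 0 genes in metastasis against CTC. The fixed block left 1 residual degree of freedom and could not be made for the parental comparison. The cause of these differences was not tested.

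Leaving out 1 derived line at a time, genes called ranged from 0 to 1 in metastasis against primary and from 0 to 1 in metastasis against CTC. Members at an unadjusted p under 0.05 ranged from 2 to 8 in metastasis against primary and from 3 to 9 in CTC against primary. Counts of members whose groups do not overlap, under RLE factors and no TMM factor (chosen after seeing the data), were 5 to 7 lower in metastasis against primary and 11 to 12 lower in derived lines against parental, and the other 6 such counts did not move. With 3 lines a group and 1 parental library, no member passed with edgeR. This held for genes with few counts, such as Il6 or Tnfaip6, and for genes with many, such as Csf1 or Tnfaip3. Il6 and Tnfaip6 passed with DESeq2 in CTC against primary lines, on 0 counts in CTC lines and 40 or fewer in any primary line. The part of sequencing depth was not tested.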
